A study of Homo sapiens with 15 samples.

Results

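The genes described here encode parts of epithelial cell junctions and of the keratin cytoskeleton anchored to them. They are the claudins CLDN1, CLDN3, CLDN4 and CLDN7, occludin (OCLN), EPCAM, desmoplakin (DSP) and the keratins KRT8, KRT18 and KRT19. They were taken by gene symbol, EPCAM through its older name TACSTD1, and that rule uses no measured value. They make up 10 of the 30992 genes measured and have 17 of the 41000 probes. With CtBP2 silencing in MDA-MB231 cells, CLDN1 fell to 37.6% of the control signal on the probe that was well above background on all arrays, and CLDN7 rose 1.96-fold. CLDN1 also fell with each of the CtBP inhibitors HIPP and P4, to 53.0% and 67.4% on that probe. Averaged with a second, dim probe, which in shCtBP2 cells was not well above background, the levels were 35.9, 66.8 and 77.0%. DSP rose with silencing and with HIPP, and KRT19 rose with HIPP and P4, each by at most 1.51-fold. The other 6 genes did not pass with any treatment in which they were tested. Under alternative settings some of these outcomes changed, and the changes of CLDN1 and KRT19 with P4 did not pass in several. With another background correction and normalization the fall of CLDN1 in shCtBP2 cells was smaller, at a log2 ratio of −0.37.

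MDA-MB231 is a human line from a breast cancer without oestrogen, progesterone or HER2 receptors, and 15 two-colour arrays compared treated with control cells of this line. On 5 arrays the treated cells were shCtBP2 cells, which carried a stably transfected, puromycin-selected short hairpin RNA against CtBP2. On 5 further arrays the cells had received HIPP for 24 h, and on the last 5 they had received P4 for 24 h. HIPP is a hydroxyimino and P4 a hydrazone derivative of a phenylpropanoate, and the concentrations used for the arrays are not given in the sources used here. The 5 samples of each treatment are biological replicates by their labels, which give untreated cells as control throughout. By the methods, however, the control of shCtBP2 cells carried a scrambled hairpin. Treated RNA was labelled with Cy5 and control RNA with Cy3 on every array, so that a dye effect of a gene cannot be told apart from an effect of the treatment. Whether a control extract was used for more than 1 array is not given in the sources used here, nor whether the transfected cells were a pool or a clone.

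Between 64.9 and 81.0% of gene spots per array and channel were well above background, and 0 were saturated. VIM, CD44, FN1 and SPARC, which mark mesenchymal-like cells of this line, were well above background on all 15 arrays. Of the receptor genes, PGR was so on 0 of them, ESR1 in both channels on 5 of 5 HIPP arrays and on fewer of the others, and ERBB2 on all 15. ERBB2 also rose in shCtBP2 cells and with P4 (both 0.36, adjusted p = 0.0126 and 0.00553). CDH1, the gene of E-cadherin, was well above background in neither channel on any of them. In shCtBP2 cells the signal of CTBP2 itself was 75.4% of that in the control, with log2 ratios of −0.36, −0.35, −0.59, −0.44 and −0.29 (mean −0.41 ± 0.11, SD, n = 5, limma adjusted p = 0.0595). It was thus lower on 5 of 5 arrays without passing the threshold. By real-time PCR and western blot the study reported significantly lower CtBP2 mRNA and protein than in cells with the scrambled hairpin. With HIPP the CTBP2 signal on the arrays rose on 5 of 5 (0.57 ± 0.36, 1.49-fold, adjusted p = 0.00256), and its value with P4 was 0.17 ± 0.35 (adjusted p = 0.344). Of the 4 slides, slide 1 carried P4 replicates 1 to 4, slide 2 held HIPP replicates 1 to 3 and P4 replicate 5, slide 3 had shCtBP2 replicates 1 and 2 beside HIPP replicates 4 and 5, and slide 4 had the last 3 shCtBP2 replicates. Slide 1 was scanned on another day than the rest.

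As background, claudins and occludin are the membrane proteins that seal neighbouring epithelial cells at tight junctions. Desmoplakin ties keratin filaments to desmosomes, and KRT8, KRT18 and KRT19 are the keratins of simple epithelia. CtBP proteins are corepressors without a DNA-binding domain of their own. Factors such as ZEB1 bring them to E-boxes in the promoters of epithelial genes, among them CDH1, and MDA-MB231 is usually counted among the claudin-low lines. The comparison asks how these genes moved when CtBP2 was silenced or its inhibitors were given.

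RefSeq promoter windows on GRCh38.p14, each from 250 bases before to 50 bases after a transcription start, were given for 7 of the 10 genes, the others being EPCAM, KRT18 and KRT19. Each window was searched for the E-box letters CACCTG and CAGGTG, which are the same site read on opposite strands. Of all 35116 windows, 20.6% hold at least 1 match, and 3.49% hold 2 or more. Among the 7 genes, CLDN3, CLDN7, OCLN and DSP have a match, and CLDN1, CLDN4 and KRT8 have none. The windows of these genes with a match hold 68.0 to 77.0% G and C and those without one 50.7 to 67.0%, against a median of 58.7% over all windows. CLDN7 has 2 start sites. The window of the upstream one (chr17:7263164-7263463, minus strand) has no match, and that of the other (chr17:7262429-7262728, minus strand) has 5, a number that 33 of all windows reach. These matches start 174, 135, 20 and 9 bases upstream of the start site and 5 bases downstream of it. OCLN, which was lower on all 5 shCtBP2 arrays without passing the test, has 1 and 2 matches in its 2 windows. The window of CLDN1, which fell in shCtBP2 cells, and the one with matches of CLDN7, which rose, are shown beside that of DSP. DSP also rose there and has 2 matches, 178 and 85 bases upstream. CLDN1 lies at chr3:190322397-190322696 on the minus strand and DSP at chr6:7541421-7541720 on the plus strand. Capitals mark the E-box matches, which are a description of letters and not of binding.
CLDN1: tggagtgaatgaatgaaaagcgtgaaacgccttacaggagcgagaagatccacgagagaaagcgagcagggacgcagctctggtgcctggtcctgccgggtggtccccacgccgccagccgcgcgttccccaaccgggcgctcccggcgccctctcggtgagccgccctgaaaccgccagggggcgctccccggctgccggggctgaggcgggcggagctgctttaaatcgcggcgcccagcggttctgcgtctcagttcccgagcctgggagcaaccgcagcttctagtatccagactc
CLDN7: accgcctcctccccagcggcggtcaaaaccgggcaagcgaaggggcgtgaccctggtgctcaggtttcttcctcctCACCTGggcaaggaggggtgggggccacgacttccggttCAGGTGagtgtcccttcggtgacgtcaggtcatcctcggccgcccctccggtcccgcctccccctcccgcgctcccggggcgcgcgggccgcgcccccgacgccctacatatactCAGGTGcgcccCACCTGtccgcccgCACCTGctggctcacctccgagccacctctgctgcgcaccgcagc
DSP: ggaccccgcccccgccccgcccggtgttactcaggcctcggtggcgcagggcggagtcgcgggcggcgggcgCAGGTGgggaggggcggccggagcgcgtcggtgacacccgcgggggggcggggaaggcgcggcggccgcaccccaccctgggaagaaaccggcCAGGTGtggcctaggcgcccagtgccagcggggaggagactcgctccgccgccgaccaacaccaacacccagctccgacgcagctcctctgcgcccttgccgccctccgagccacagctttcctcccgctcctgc

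For each gene the log2 ratio of treated to control signal was averaged over its probes and tested against 0 with limma, with Benjamini-Hochberg adjustment over 27582 genes per treatment. Means are given ± SD over the 5 arrays of a treatment (n = 5 throughout), and every adjusted p is that of limma. Genes are called differentially expressed where the adjusted p is under 0.05 and the linear fold change reaches the threshold of the study's methods, which is 1.5 for shCtBP2, 2.5 for HIPP and 1.8 for P4. A filter on low variation kept 9 of the 10 genes in the shCtBP2 test, 7 in the HIPP test and all 10 in the P4 test. In shCtBP2 cells 2 were called (CLDN7 higher and CLDN1 lower), where 6.57% of all genes tested were called. With HIPP 0 were called, beside 7.05% of all genes, and with P4 0 beside 8.46%. The adjusted p alone was passed by 3 genes in shCtBP2 cells (13.5% of all genes), by 3 with HIPP (48.7%) and by 2 with P4 (31.9%). In the upward direction these were 2, 2 and 1 genes, beside 6.59, 24.9 and 17.1% of all genes, and in the downward direction 1 each, beside 6.95, 23.9 and 14.8%. With each inhibitor the share among these genes was thus under or near that of all genes. Their median log2 ratios for shCtBP2, HIPP and P4 were −0.078, 0.056 and 0.038, against 0.038, 0.081 and 0.11 over all genes tested. The plot of log2 ratios by array shows all 10 genes.

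**Figure D1:**
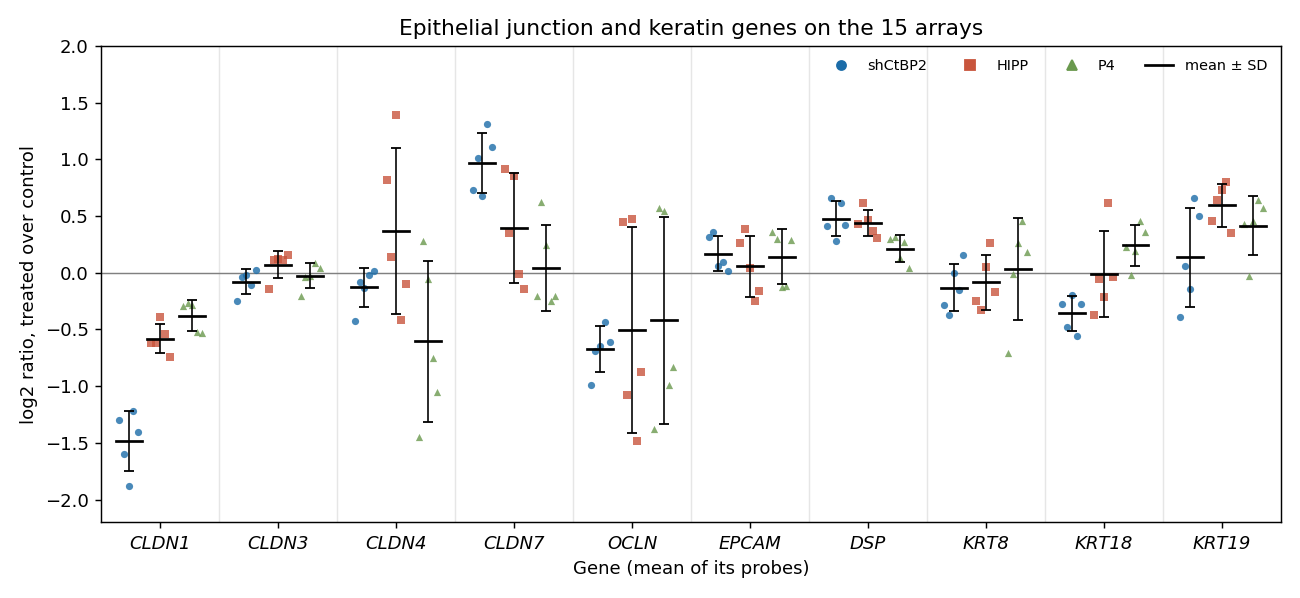
Log2 ratio of treated over control signal (y axis) for the 10 genes (x axis) in shCtBP2 cells (blue circles), with HIPP (red squares) and with P4 (green triangles). Each point is 1 array, the black line is the mean and the bar the SD of 5 arrays. CLDN1 lies under 0 on all 15 arrays and lowest in shCtBP2 cells, while OCLN and CLDN4 spread widely with the inhibitors.

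CLDN1, a claudin of tight junctions in many epithelia, was lower on all 15 arrays. In shCtBP2 cells its log2 ratios were −1.30, −1.60, −1.88, −1.22 and −1.41 on replicates 1 to 5. With HIPP they were −0.62, −0.62, −0.39, −0.54 and −0.74, and with P4 they were −0.29, −0.27, −0.28, −0.52 and −0.53. Averaged over its probes, no inhibitor array reached the range of the shCtBP2 arrays. The mean was −1.48 ± 0.26 in shCtBP2 cells (adjusted p = 2.79e-07), or 2.79-fold lower, in which 1 of the 2 probes has only a bound, and the other gave 2.66-fold. With HIPP it was −0.58 ± 0.13 (adjusted p = 0.000166) and with P4 −0.38 ± 0.13 (adjusted p = 0.00847), both under the fold-change threshold. The difference between shCtBP2 cells and HIPP was −0.90 (SE 0.14, adjusted p = 0.000199), and that between shCtBP2 cells and P4 was −1.10 (SE 0.14, adjusted p = 0.000151).

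The fall of CLDN1 was read by 2 probes of unequal strength. The first, on chromosome 3 from 191506703 to 191506762 (array annotation, build hg17, minus strand), was well above background in both channels on all arrays. In shCtBP2 cells its mean signal was 56.1 against 149 in the control, a log2 ratio of −1.41 ± 0.25, and it had −0.92 ± 0.23 with HIPP and −0.57 ± 0.16 with P4. On this probe HIPP replicate 5, at −1.25, lay inside the range of the shCtBP2 arrays, which ran from −1.72 to −1.14. The second, from 191510667 to 191510726, was dim. In shCtBP2 cells its treated channel was well above background on 0 of 5 arrays, and there the probe was at least 1.11-fold lower, while its measured log2 ratio was −1.55. With HIPP it had −0.25 ± 0.27, not tested, and with P4 −0.19 ± 0.33 (adjusted p = 0.396 over all probes). Taken from the first probe alone, the difference from HIPP was −0.49 (adjusted p = 0.0244) and that from P4 −0.84 (adjusted p = 0.00234).

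The CLDN1 change was smaller under a setting that replaced background correction and normalization together. With normexp correction and loess its log2 ratio in shCtBP2 cells was −0.37 (adjusted p = 0.00279), which passed the adjusted p but not the fold-change threshold. The values with HIPP and P4 were then −0.23 and −0.21 (adjusted p = 0.0132 and 0.0250). With that setting 0.975% of all genes were called for shCtBP2, 1.01% for HIPP and 2.12% for P4. The differences from HIPP and P4 then shrank to −0.14 and −0.16 (adjusted p = 0.309 and 0.281). With slide as a fixed block it was −1.37 in shCtBP2 cells and still called (as were 7.89% of all genes), and the difference from P4 was −0.82 (adjusted p = 0.173). Within slide 3, which held both treatments, the mean was −1.45 on 2 shCtBP2 arrays and −0.64 on 2 HIPP arrays. With P4 alone, the fall did not pass with slide as a block (−0.54, adjusted p = 0.105) or with median-centred signals (−0.41, adjusted p = 0.0628). At an unchanged −0.38 it also did not pass with the arrays of each treatment fitted alone (adjusted p = 0.0571) or by the methods' t-test (0.213). Without P4 replicate 4 CLDN1 was removed by the variation filter.

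CLDN7, a claudin of epithelial lateral membranes, moved the other way in shCtBP2 cells. Its log2 ratios there were 0.73, 1.01, 0.68, 1.31 and 1.11, all above 0. With HIPP they were 0.92, 0.35, 0.85, −0.011 and −0.14, so that the first 3 replicates, on slide 2, were high and the last 2, on slide 3, were near 0. With P4 they were −0.21, 0.62, 0.24, −0.25 and −0.21. The mean in shCtBP2 cells was 0.97 ± 0.27 (adjusted p = 0.00172), and its single probe (chromosome 17, 7104546 to 7104710) gave 785 against 401 in the control. With HIPP the mean was 0.39 ± 0.48, which was not tested because the variation filter removed the gene, and with P4 0.040 ± 0.38 (adjusted p = 0.868). The difference between shCtBP2 cells and P4 was 0.93 (SE 0.24, adjusted p = 0.0198), and that between shCtBP2 cells and HIPP was 0.58 (SE 0.24, adjusted p = 0.0884). On slide 3 the mean was 0.87 on 2 shCtBP2 arrays and −0.077 on 2 HIPP arrays. CLDN7 was called in shCtBP2 cells with normexp correction (0.71) and with slide as a block (1.38). Its difference from P4 was then 0.68 and 1.86 and did not pass with either (adjusted p = 0.0522 and 0.0670). The difference also did not pass without shCtBP2 replicate 4 or P4 replicate 4 or 5 (0.84 to 0.87).

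CLDN3 and CLDN4, neighbouring claudin genes on chromosome 7, were not called with any treatment. The mean of the CLDN3 probes stayed between −0.25 and 0.15 on the 15 arrays. Its means were −0.078 (shCtBP2), 0.071 (HIPP) and −0.027 (P4) (adjusted p = 0.556, 0.451 and 0.803). Its 2 probes went apart, however. With P4 the one from 72628014 to 72628073 was lower on 5 of 5 arrays (−0.28 ± 0.20) and the brighter one from 72628629 to 72628688 was higher on 5 of 5 (0.22 ± 0.059), neither passing over all probes (adjusted p = 0.0649 and 0.0508). The brighter one had 0.21 ± 0.20 with HIPP (adjusted p = 0.0487) and −0.14 ± 0.093 in shCtBP2 cells (adjusted p = 0.289), and the other, untested there, had −0.063 and −0.016. CLDN4 spread far more with the inhibitors than the CLDN3 mean. Its log2 ratios were −0.42, −0.080, −0.14, −0.024 and 0.019 in shCtBP2 cells. With HIPP they ran 0.82, 0.14, 1.39, −0.42 and −0.10, and with P4 −1.45, 0.28, −0.054, −0.75 and −1.05. The means were 0.37 ± 0.73 with HIPP, not tested, and −0.61 ± 0.71 with P4 (adjusted p = 0.0762 for P4). Without P4 replicate 2 the value with P4 was −0.83 (adjusted p = 0.0268), and with slide as a fixed block it was −1.38 (adjusted p = 0.0698).

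OCLN, a membrane protein of tight junctions, was lower on 5 of 5 shCtBP2 arrays, at −0.99, −0.69, −0.64, −0.43 and −0.61. The mean of −0.67 ± 0.20 did not pass the test (adjusted p = 0.167), in a fit that shares its spread with the inhibitor arrays. There the gene swung between 2 levels. With HIPP it had 0.45 and 0.47 on replicates 1 and 3 and −1.08, −1.48 and −0.88 on replicates 2, 4 and 5. With P4 it had 0.57 and 0.55 on replicates 2 and 3 and −1.38, −0.99 and −0.83 on replicates 1, 4 and 5. The means of −0.50 ± 0.91 and −0.42 ± 0.91 thus stand for no single array. Both probes, on chromosome 5 from 68883142 to 68885185 and from 68885271 to 68885330, swung on the same arrays. When each treatment was fitted alone on its 5 arrays, OCLN passed in shCtBP2 cells (adjusted p = 0.00873), as it did by the methods' t-test (0.0391), and at 1.59-fold lower it was called in both cases. With slide as a fixed block, which sets each treatment to the average of all 4 slides, its value in shCtBP2 cells was −0.079 (adjusted p = 0.934). The shCtBP2 arrays were on slides 3 and 4 alone, where the OCLN means were −0.84 and −0.56. With P4 the OCLN value with slide as a fixed block was −1.20 (adjusted p = 0.186).

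The arrays with high OCLN were also those with the highest CLDN4 and CLDN7. With HIPP, replicates 1 and 3 were the 2 highest arrays for all 3 genes. With P4, replicates 2 and 3 were the 2 highest for all 3, and P4 replicate 1 was the lowest for OCLN and CLDN4. On average all 3 genes were also higher on the 3 HIPP arrays of slide 2 than on the 2 of slide 3, with means of −0.054 and −1.18 for OCLN, 0.78 and −0.26 for CLDN4, and 0.71 and −0.077 for CLDN7. The part of the slide in these values was not tested. CLDN1 had no such swing and stayed between −0.74 and −0.39 with HIPP and between −0.53 and −0.27 with P4. The share of gene spots well above background in the control channel was 70.3 and 81.0% on HIPP replicates 1 and 3, the lowest and the highest with HIPP, and 68.0 and 75.8% on P4 replicates 2 and 3, inside the range of the P4 arrays. The part of this share in the swing was not tested. The plot by slide sets the 4 genes side by side.

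**Figure D2:**
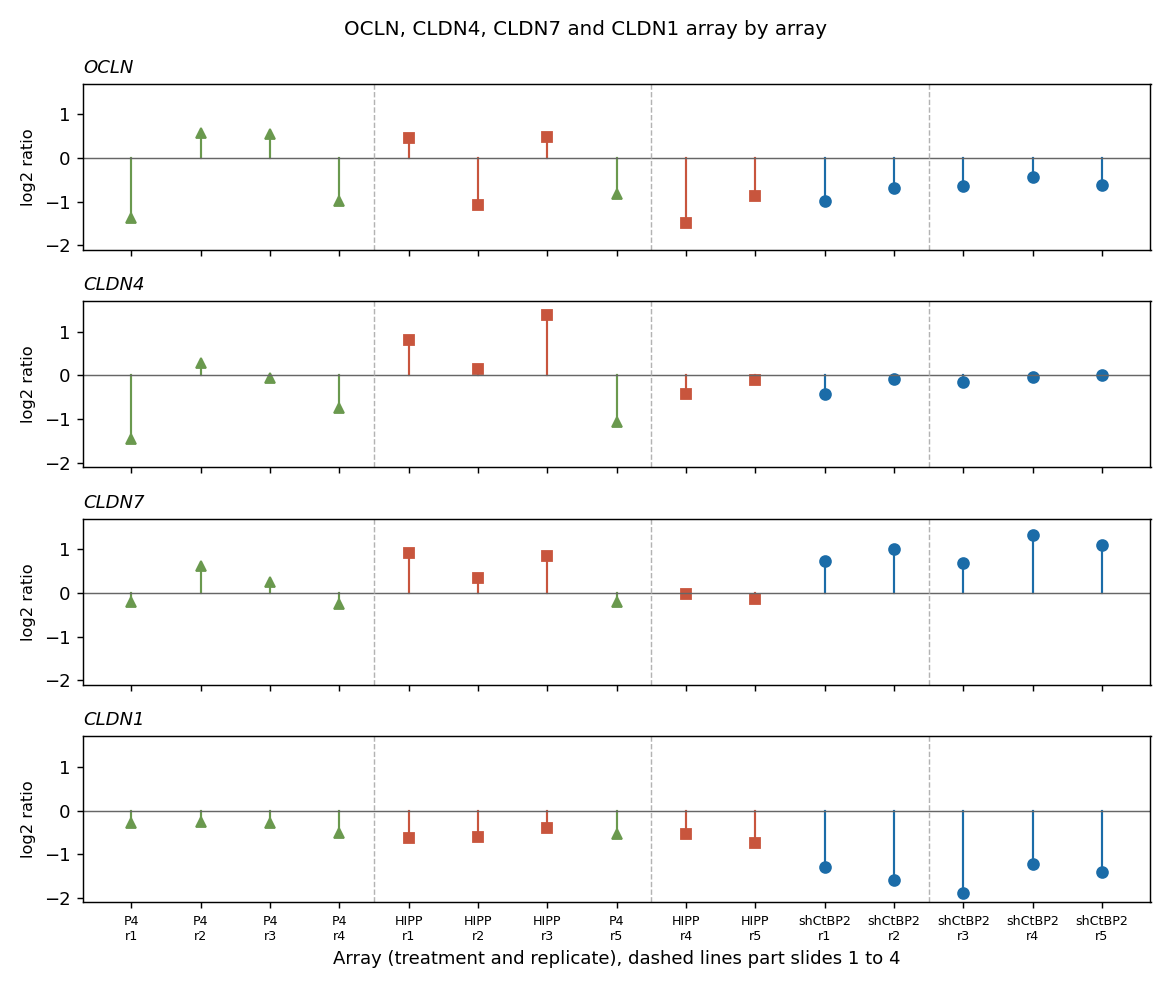
Log2 ratio of treated over control signal (y axis) of OCLN, CLDN4, CLDN7 and CLDN1 on each of the 15 arrays (x axis, r is the replicate), with dashed lines between slides 1 to 4, where blue circles are shCtBP2, red squares HIPP and green triangles P4. OCLN is above 0 on HIPP replicates 1 and 3 and P4 replicates 2 and 3 and under 0 on the other 11 arrays, while CLDN1 is under 0 on all 15.

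EPCAM, an epithelial adhesion molecule that binds CLDN7, did not pass with any treatment. Its log2 ratios ran from 0.017 to 0.36 in shCtBP2 cells, from −0.25 to 0.38 with HIPP and from −0.13 to 0.36 with P4. The means were 0.17 ± 0.16, 0.056 ± 0.27 and 0.14 ± 0.24 (adjusted p = 0.345, 0.696 and 0.331). It was higher on 5 of 5 shCtBP2 arrays, as CLDN7 was. With HIPP its mean was 0.23 on slide 2 and −0.20 on slide 3, where CLDN7 also had the lower mean. The 2 genes were not tested against each other.

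DSP, the plaque protein that joins desmosomes to keratin filaments, was higher on all 15 arrays. Its log2 ratios were 0.42, 0.66, 0.28, 0.61 and 0.42 in shCtBP2 cells, 0.43, 0.62, 0.47, 0.37 and 0.31 with HIPP and 0.30, 0.31, 0.13, 0.27 and 0.041 with P4. The arrays of the 3 treatments overlapped, with the lowest mean for P4. The mean was 0.48 ± 0.16 in shCtBP2 cells (adjusted p = 0.00142) and 0.44 ± 0.12 with HIPP (adjusted p = 0.000413), 1.39-fold and 1.35-fold higher and under the fold-change thresholds. With P4 it was 0.21 ± 0.12 (adjusted p = 0.0576). The difference of DSP between shCtBP2 cells and HIPP was 0.041 (SE 0.11, adjusted p = 0.820) and that between shCtBP2 cells and P4 0.27 (SE 0.11, adjusted p = 0.149). With normexp correction and loess the latter was 0.31 and passed (adjusted p = 0.0208). The rise of DSP with HIPP did not pass by the methods' t-test (adjusted p = 0.125). Its value with P4 passed in 4 alternatives, which were the deposited table (adjusted p = 0.0211), slide as a random block (0.0295), replicate number as a block (0.0330) and a filter on dim probes (0.0454). With slide as a block the value in shCtBP2 cells was 0.65, above the fold-change threshold (adjusted p = 0.0206).

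Among the keratins, KRT19, a simple-epithelial keratin, rose with the inhibitors. Its log2 ratios were 0.45, 0.64, 0.73, 0.80 and 0.35 with HIPP, and 0.43, −0.025, 0.45, 0.65 and 0.58 with P4. In shCtBP2 cells they were −0.39, 0.063, −0.15, 0.65 and 0.50, with replicates 1 and 3 under 0 and replicates 4 and 5 high. The mean was 0.59 ± 0.19 with HIPP (adjusted p = 0.00271) and 0.42 ± 0.26 with P4 (adjusted p = 0.0349). In shCtBP2 cells it was 0.14 ± 0.44 (adjusted p = 0.585). The difference between shCtBP2 cells and HIPP was −0.46 (SE 0.20, adjusted p = 0.105). At 1.51-fold with HIPP, KRT19 would be called at a threshold of 1.5, which 32.5% of all genes pass with HIPP. The rise with P4 did not pass without P4 replicate 1, 3, 4 or 5 (0.36 to 0.41, adjusted p = 0.0613 to 0.119) or with slide as a block (0.64, adjusted p = 0.133). At an unchanged 0.42 it also did not pass with each treatment fitted alone (adjusted p = 0.0750) or by the methods' t-test (0.303).

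KRT18 pairs with KRT8 in the filaments of simple epithelia and was measured by 4 probes on chromosome 12 between 51630879 and 51632897. In shCtBP2 cells the log2 ratios of the gene were −0.27, −0.48, −0.20, −0.56 and −0.27, with HIPP −0.37, −0.055, −0.22, 0.62 and −0.036, and with P4 0.23, −0.019, 0.19, 0.46 and 0.36. The shCtBP2 arrays were all under 0, and 4 of 5 P4 arrays were above it. The means were −0.36 ± 0.15 in shCtBP2 cells (adjusted p = 0.0636), −0.013 ± 0.38 with HIPP, not tested, and 0.24 ± 0.18 with P4 (adjusted p = 0.130). The value in shCtBP2 cells passed with the deposited table (adjusted p = 0.0470), a filter on dim probes (0.0474) and each treatment fitted alone (0.0298). The difference between shCtBP2 cells and P4 was −0.60 (SE 0.17, adjusted p = 0.0329). It did not pass without shCtBP2 replicate 1, 2, 4 or 5 or P4 replicate 4 or 5 (adjusted p up to 0.0831). With slide as a block it was −1.24 (adjusted p = 0.0875) and with normexp correction and loess −0.40 (adjusted p = 0.0613), and it passed with neither.

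The probes of KRT18 did not move alike. The probe nearest the start of the gene, from 51630879 to 51630938, was lower with all treatments, at −0.48 ± 0.14 (shCtBP2), −0.43 ± 0.24 (HIPP) and −0.32 ± 0.21 (P4) (adjusted p = 0.00651, 0.00284 and 0.0276 over all probes). The next 2 probes had −0.36 and −0.24 in shCtBP2 cells and 0.12 and 0.34 with P4. The last, from 51632837 to 51632897, is placed on the opposite strand to the gene and was dim, with mean control signals from 30.8 to 77.4. It had −0.34 ± 0.36 in shCtBP2 cells and 0.83 ± 0.10 with P4 (adjusted p = 0.199 and 0.00184). Without this probe, a choice made once its values were known, KRT18 had −0.36 in shCtBP2 cells (adjusted p = 0.0463), and its difference from P4 was −0.41 (adjusted p = 0.112).

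KRT8 did not pass with any treatment, at −0.13 ± 0.21 (shCtBP2), −0.085 ± 0.24 (HIPP) and 0.036 ± 0.45 (P4) (adjusted p = 0.603, 0.642 and 0.860). On P4 replicate 1 KRT8 had −0.71, from its dimmer probe alone, since the spot of the brighter one was left out there as an outlier. When such spots were kept, the P4 mean was 0.18 (adjusted p = 0.203). With HIPP its 2 probes on chromosome 12 went apart. The one from 51577293 to 51577352 had 0.33 ± 0.48 and the dimmer one from 51580728 to 51581262 had −0.49 ± 0.44 (adjusted p = 0.112 and 0.0250 over all probes). KRT8 and KRT18 have many processed pseudogenes, and whether these probes also read them is not known here.

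**Figure D3:**
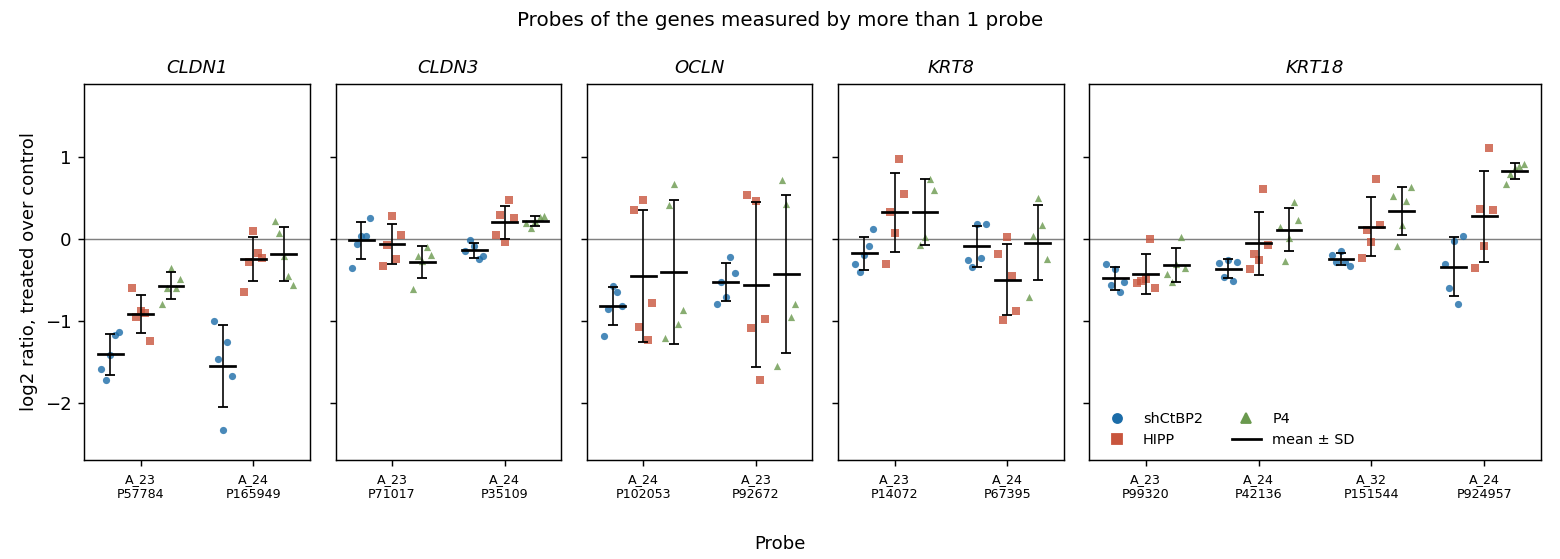
Log2 ratio of treated over control signal (y axis) for each probe (x axis, array probe names) of the 5 genes with more than 1 probe, where points are arrays, black lines are means and bars the SD of 5 arrays (4 for the KRT8 probe A_23_P14072 with P4). Both OCLN probes spread alike, whereas the KRT18 probe A_24_P924957 of the opposite strand lies near 0.83 with P4 and the KRT18 probe A_23_P99320 lies under 0 on average with all treatments.

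Side by side, shCtBP2 cells differed from HIPP in 1 of the 10 genes (CLDN1), where 26.7% of all 30992 genes differed, and from P4 in 3 (CLDN1, CLDN7 and KRT18), where 12.5% did. HIPP and P4 were not tested against each other, since their concentrations on the arrays are not known here. CLDN1 and DSP kept 1 direction on all 15 arrays, CLDN1 downward and DSP upward. In shCtBP2 cells 6 of the 10 genes went 1 way on all 5 arrays (CLDN7, EPCAM and DSP up, CLDN1, OCLN and KRT18 down), with HIPP 3 did (DSP and KRT19 up, CLDN1 down) and with P4 2 did (DSP up, CLDN1 down). The plot of means under 5 settings shows which values moved with the processing.

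**Figure D4:**
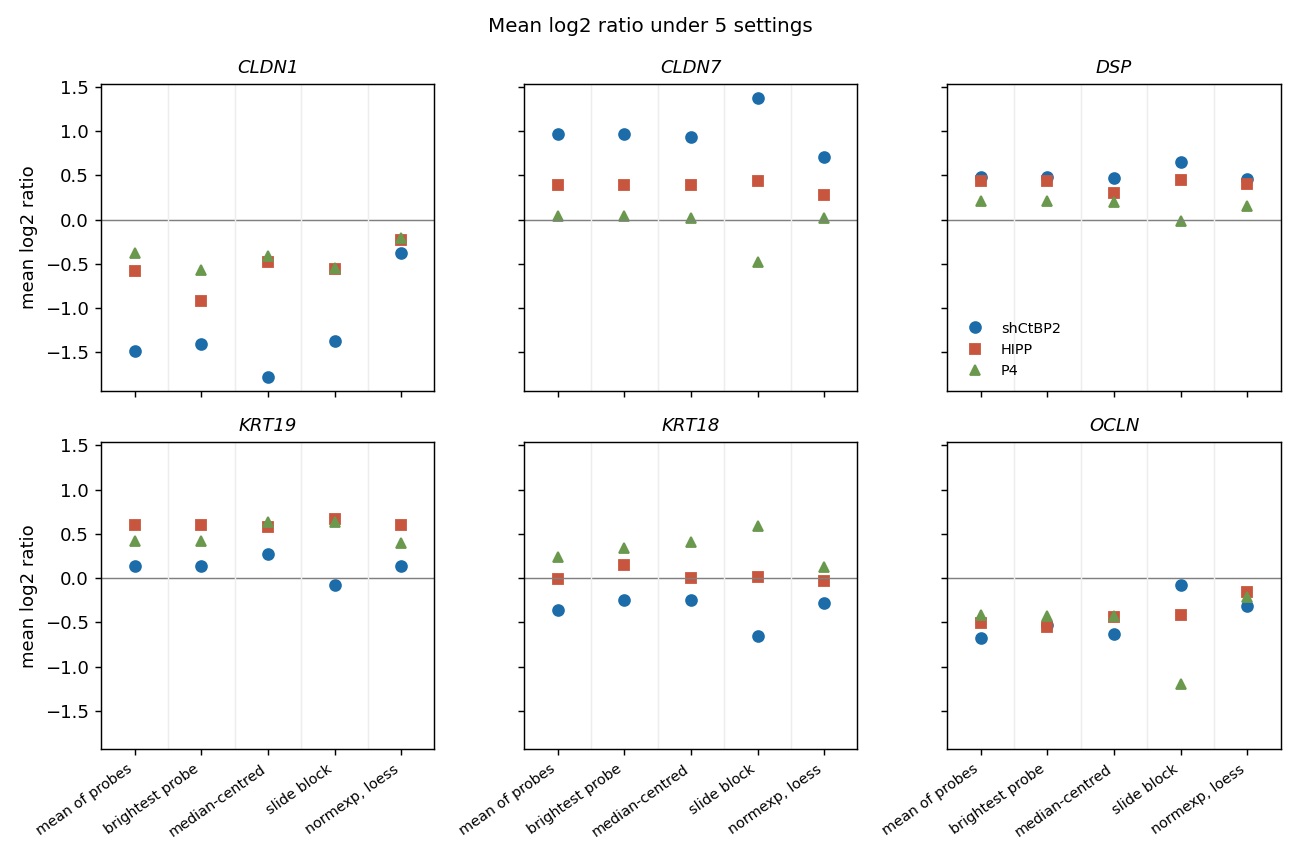
Mean log2 ratio of treated over control (y axis) of 6 genes, by treatment, under 5 settings (x axis): mean of probes as reported, brightest probe, median-centred background-subtracted signals, slide as a fixed block, and normexp with loess. CLDN1 in shCtBP2 cells moves from −1.48 to −0.37 with normexp and loess, while DSP there stays between 0.46 and 0.65.

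Among 17 other claudins, 16 were on the arrays and 0 were called with any treatment. Of all genes tested 6.57% were called for shCtBP2, 7.05% for HIPP and 8.46% for P4. In the same order 4, 4 and 5 of these claudins were well above background in neither channel on any array of the treatment. CLDN23 fell with HIPP (−0.51 ± 0.15, adjusted p = 7.37e-05), and at the adjusted p alone 1 of 15 tested passed in shCtBP2 cells, and 3 of 14 did with HIPP and 1 of 15 with P4, where 13.5, 48.7 and 31.9% of all genes did. CLDN10 fell with HIPP, CLDN9 rose with P4 and CLDN6 fell in shCtBP2 cells, all with an adjusted p from 0.0250 to 0.0456. CLDN22 had 0.50 with HIPP (adjusted p = 0.0444), though on 0 of 5 arrays was it well above background in either channel. Among 21 genes of the tight junction plaque and other tight junction membrane proteins, 2 higher and 10 lower of 20 tested passed the adjusted p with HIPP, and 3 higher and 10 lower of 20 with P4, against 0 higher and 2 lower of 16 in shCtBP2 cells. Their median log2 ratio was −0.37 with HIPP, −0.33 with P4 and −0.10 in shCtBP2 cells. Over all genes tested the share that passed in the downward direction was 23.9% with HIPP, 14.8% with P4 and 6.95% in shCtBP2 cells. By adjusted p and fold change together, 2 of these genes were called for shCtBP2, 4 for HIPP and 3 for P4. That same rule called 0 of them for each treatment once normexp correction and loess were used. Of all genes it then called only 0.975% for shCtBP2, 1.01% for HIPP and 2.12% for P4. At such low shares a count of 0 does not set this list apart.

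CGNL1, which encodes paracingulin of the junction plaque, was called lower in all 3 comparisons, at −1.10 ± 0.76 (shCtBP2), −1.76 ± 0.51 (HIPP) and −1.70 ± 0.22 (P4) (adjusted p = 0.00552, 1.71e-05 and 9.08e-05). It was lower on all 15 arrays, though at −0.11 on shCtBP2 replicate 4. MARVELD2, the tricellular junction protein tricellulin, rose 3.27-fold with HIPP (1.71 ± 0.11, adjusted p = 7.34e-09). It also rose with P4, under the fold-change threshold (0.43, adjusted p = 0.00303), and had −0.28 in shCtBP2 cells (adjusted p = 0.0599). PARD3, a polarity scaffold, fell with HIPP (−1.46 ± 0.35, adjusted p = 1.53e-06), and its smaller fall with P4 (−0.50, adjusted p = 0.0177) was not called. PARD6A, its partner, was called lower in shCtBP2 cells (−0.86 ± 0.20, adjusted p = 0.000656) and fell by less than the thresholds with HIPP and P4 (−0.58 and −0.53, adjusted p = 0.00199 and 0.00694). CXADR, an adhesion receptor, was called lower with P4 (−1.07 ± 0.38, adjusted p = 0.00106) and also with HIPP (−1.40 ± 0.63, adjusted p = 4.22e-05). PATJ, a polarity scaffold, was called lower with P4 (−0.92 ± 0.19, adjusted p = 0.000206) and fell with HIPP without reaching its fold-change threshold (−0.77, adjusted p = 0.000286). The calls of CGNL1 and PATJ with P4 were lost with slide as a fixed block (adjusted p = 0.0573 and 0.166).

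**Figure D5:**
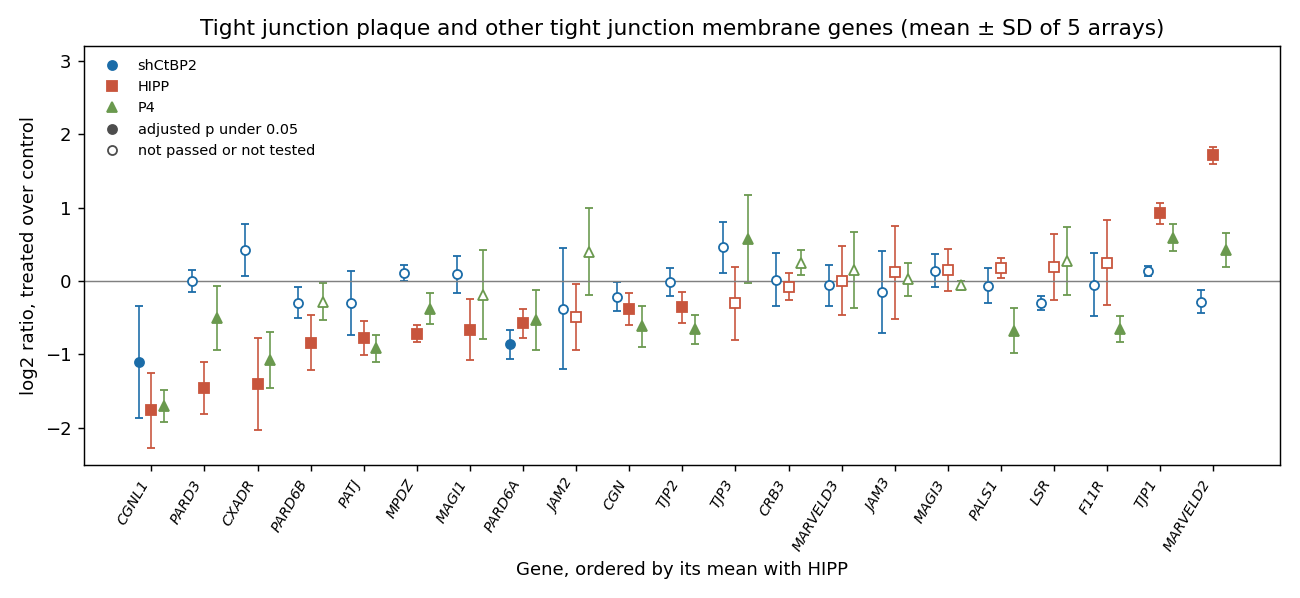
Mean log2 ratio with SD of 5 arrays (y axis) for 21 genes of the tight junction plaque and other tight junction membrane proteins (x axis, ordered by the mean with HIPP) in shCtBP2 cells (blue circles), with HIPP (red squares) and with P4 (green triangles), with filled symbols for those that passed the adjusted p. CGNL1 is the lowest with HIPP at −1.76 and MARVELD2 the highest at 1.71.

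Among 15 other desmosome genes, 2 rose and 2 fell of 12 tested in shCtBP2 cells, 2 rose and 3 fell of 13 with HIPP, and 0 rose and 2 fell of 12 with P4, at the adjusted p alone. The shares of all genes that passed upward and downward, given above, were 6.59 and 6.95% in shCtBP2 cells, 24.9 and 23.9% with HIPP, and 17.1 and 14.8% with P4. JUP, the plaque protein plakoglobin, rose in shCtBP2 cells (0.51, adjusted p = 0.0117). With each inhibitor JUP was lower on 5 of 5 arrays (−0.27 with HIPP and −0.37 with P4, not tested). DSC2, a desmosomal cadherin, rose with HIPP (1.12, adjusted p = 7.16e-06). PKP2, a plakophilin of the desmosome plaque, was lower on all 15 arrays, at −1.32 ± 0.14 (shCtBP2), −1.10 ± 0.11 (HIPP) and −0.99 ± 0.29 (P4) (adjusted p = 9.25e-07, 5.19e-07 and 7.75e-06), and was called in shCtBP2 cells and with P4, the latter not with slide as a fixed block (−0.74). PKP4 fell in shCtBP2 cells just past the threshold (−0.59 ± 0.25, adjusted p = 0.00283), a call lost without shCtBP2 replicate 2, 4 or 5 or with slide as a fixed block (−0.49). It fell further with HIPP (−0.83 ± 0.23, adjusted p = 2.00e-05), where the fold-change threshold is higher. Of 9 hemidesmosome genes 1 was called, in shCtBP2 cells, where 6.57% of all genes were. At the adjusted p alone 1 rose and 0 fell of 8 in shCtBP2 cells, 1 rose and 2 fell of 7 with HIPP, and 1 rose and 3 fell of 7 with P4. LAMB3, a laminin chain of their anchorage, was higher in shCtBP2 cells (0.70 ± 0.20, adjusted p = 0.000265) and fell with both inhibitors, at −0.76 with HIPP and −0.48 with P4 (adjusted p = 1.19e-05 and 0.00163).

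Of 17 other keratins, 16 were on the arrays, and at the adjusted p alone 3 rose and 2 fell of 16 in shCtBP2 cells, 3 rose and 3 fell of 16 with HIPP, and 3 rose and 1 fell of 15 with P4, to be read against the same shares of all genes. KRT7, a simple-epithelial keratin, fell in shCtBP2 cells (−0.95 ± 0.14, adjusted p = 0.000303). KRT81, a hair keratin, rose 3.03-fold with HIPP and 4.38-fold with P4 (1.60 ± 0.39 and 2.13 ± 0.27, adjusted p = 1.88e-07 and 1.08e-07), and had −0.16 in shCtBP2 cells (adjusted p = 0.452). Its sequence is close to that of KRT86, and which of the pair its probe read is uncertain. KRT13 was also called higher in shCtBP2 cells (0.76 ± 0.62, adjusted p = 0.0476), although the treated channel exceeded background clearly on only 2 of 5 arrays. Among 18 genes of epithelial programs, 1 was called, MUC1, an apical mucin, which was higher in shCtBP2 cells (0.75 ± 0.22, adjusted p = 0.00179), among 6.57% of all genes called there. At the adjusted p alone 1 rose and 2 fell of 17 in shCtBP2 cells, and 3 rose and 0 fell with each inhibitor, of 15 with HIPP and 16 with P4. Upward, 6.59, 24.9 and 17.1% of all genes passed with shCtBP2, HIPP and P4. With each treatment 6 of the 18 were well above background in neither channel on any array. Of the 10 adherens junction genes 0 were called with any treatment, beside 6.57% (shCtBP2), 7.05% (HIPP) and 8.46% (P4) of all genes. At the adjusted p alone 0 rose and 2 fell of 8 in shCtBP2 cells, 1 rose and 3 fell of 8 with HIPP, and 0 rose and 2 fell of 4 with P4. The one that rose with HIPP was NECTIN4 (0.99, adjusted p = 0.00857), which was well above background in either channel on 0 of 5 arrays. The shares of all genes that passed downward were 6.95, 23.9 and 14.8%. Among 7 markers of this line, SPARC was called higher in shCtBP2 cells (1.55-fold) and CD44 with HIPP (2.63-fold), the latter not without HIPP replicate 5, beside 6.57 and 7.05% of all genes. In the other direction FN1 fell with HIPP and P4 (−0.44 and −0.76, adjusted p = 0.00184 and 7.32e-05) and SPARC with HIPP (−0.32, adjusted p = 0.00271).

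Among 7 genes of blood and endothelium, PTPRC was well above background in a channel on at most 1 of 5 arrays of a treatment. CD14, in contrast, was so in both channels on all 15, and CD3E on 5 of 5 HIPP and P4 arrays, with 0.28 ± 0.081 on the latter (adjusted p = 0.0512, higher on 5 of 5). VWF was well above background in each channel on at least 4 of 5 arrays of a treatment. PECAM1 was called lower with HIPP (−1.95 ± 0.26, adjusted p = 6.54e-08). CDH5 was called higher in shCtBP2 cells (1.18 ± 0.88, adjusted p = 0.0210), where the treated channel likewise exceeded background on 2 of 5 arrays. By their labels all samples are of the MDA-MB231 line, and what the probes of these genes read was not tested. Of 19 called values of genes outside the 10 that followed 1 rule of choice, 7 were called with normexp correction and loess, and all 19 had the same direction there. With slide as a fixed block 4 of the 19 were not called.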

How the data were processed

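Per the labels and the study's methods, RNA was amplified, labelled and hybridized to Agilent whole human genome arrays, and the authors corrected background and dye with Feature Extraction (9.5.3.1 in the file headers). The deposited scanner files hold linear intensities per spot and the deposited table log10 ratios of red over green, which match the ratio column of the scanner files after rounding, have a median of 0 on every array and were used as an alternative. From the corrected intensities, log2 of Cy5 over Cy3 was taken per spot, 78 to 265 flagged spots per array were left out, and spots were averaged to probes and probes to genes. Probes were named through RefSeq accessions, current symbols and older symbols, and otherwise kept the name of the file. A gene needed values on 3 or more of 5 arrays, and the 11% with the lowest interquartile range over the 10 channel signals of a treatment were removed. All 15 arrays were fitted together in limma 3.58.1 (R 4.3.3), without covariates, and adjusted with Benjamini-Hochberg. Treatments were contrasted in the same fit over 30992 genes. A bound for a probe dim in 1 channel on all 5 arrays used normexp, loess and Aquantile normalization, with dim signals raised to the lowest signal well above background. The test was run on simulated shifts in 200 genes. At log2 shifts of 1 it recovered 55, 56 and 58% of them for shCtBP2, HIPP and P4, on 30866 genes.

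All 10 genes and every probe of them are described, with CTBP2 and CDH1, and from each further list the 3 called genes of largest change per treatment that had 1 direction on all arrays and were well above background on at least 3 of 5 arrays in 1 channel. CLDN6, CLDN9, CLDN10, CLDN22, CLDN23, JUP, DSC2, NECTIN4, KRT13, FN1, ERBB2, CD3E, CD14, VWF, CDH5 and PTPRC were named beside this rule, after their values were seen. The genes, the lists and the motif were chosen with earlier results of these data known. The 5 arrays per treatment limit the precision, and p-values measure the spread between these samples. Samples with the same replicate number were not taken as pairs, since 2 of 15 correlations of their deviations were 0.1 or less (lowest −0.028, highest 0.47), and the rule for pairing needs every one over 0.1.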

Additional observations from a re-analysis of the deposited data

Results flagged for a closer look

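CLDN3 with HIPP had 1 array apart from the others, at −0.14 on replicate 1 where the other 4 lay between 0.11 and 0.15. It was the only such array among 30 gene and treatment groups, and about 1 in 20 groups shows one by chance.

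In 4 cases the test of the difference between treatments passed. CLDN1 was lower in shCtBP2 cells than with HIPP (difference −0.90) and than with P4 (−1.10), or by −0.49 and −0.84 on the probe that was well above background throughout (limma adjusted p = 0.0244 and 0.00234). The other probe was not well above background in shCtBP2 cells. CLDN7 was higher in shCtBP2 cells than with P4 (0.93), and KRT18 was lower there (−0.60). These values are differences of log2 ratios, and each of them passed in the fit without a slide term and on the authors' corrected signals. Only the difference of CLDN1 from HIPP also passed with slide as a block (−0.81, limma adjusted p = 0.0275). The differences from P4 did not pass there, at −0.82 (CLDN1), 1.86 (CLDN7) and −1.24 (KRT18). None of the 4 passed with normexp correction and loess.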

How the results depend on the processing

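The count of called genes in shCtBP2 cells (2) was within 1.5 times in 15 of 16 alternatives and was 1 with normexp correction (offset 50) and loess, where CLDN7 was called and CLDN1 was not (−0.37). With HIPP (0 called) it was 3 without a fold-change threshold and 1 at a threshold of 1.5 for all treatments, and with P4 (0 called) it was 2 without a threshold. Leaving out 1 array at a time gave 2 in shCtBP2 cells and 0 with each inhibitor throughout. The count of genes differing between shCtBP2 cells and HIPP (1) was 0 with normexp and loess, 2 with the brightest probe (CLDN1 and CLDN3), and 1 to 2 with 1 array left out, KRT19 joining without shCtBP2 replicate 4 and CLDN7 without HIPP replicate 1. Between shCtBP2 cells and P4 (3) it was 0 with slide as a fixed block, 1 with normexp and loess (DSP, not one of the 3), and 1 to 3 with 1 array left out, where it was 1 without shCtBP2 replicate 4 or P4 replicate 4 or 5. The cause of these shifts was not tested. With replicate number as a block the counts stayed at 2, 0 and 0 for the treatments and at 1 and 3 for the differences, and the samples did not meet the rule for pairing, although 13 of 30 comparisons of an array with another treatment were best at its own number.

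Of 390 gene values under the alternatives that left out no array, 371 kept their direction and their call, which needs the adjusted p and the fold change together. Most of these values were not called as reported, so that keeping the call meant staying uncalled. Several alternatives change the test or the filter and leave the estimate as it was, so that the direction could not change there. The adjusted p alone moved across its threshold more often, as given beside CLDN1, OCLN, DSP, KRT18 and KRT19, and for CLDN3 with HIPP and P4 on the brightest probe (adjusted p = 0.0476 and 0.0489). No value that had passed the test turned sign. The tested values that did were with normexp and loess KRT8 with HIPP (0.093) and CLDN3 with P4 (0.0091), with median-centred signals EPCAM with HIPP (−0.010), with the brightest probe KRT8 with HIPP (0.33) and CLDN3 with P4 (0.22), and with slide as a block KRT19 in shCtBP2 cells (−0.076), EPCAM with HIPP (−0.10), and CLDN3 (0.10), CLDN7 (−0.48), EPCAM (−0.044) and DSP (−0.013) with P4. Of untested values, CLDN4 in shCtBP2 cells turned with slide as a block (0.46), and KRT18 with HIPP, at −0.013, did so with the brightest probe (0.15) and, by under 0.05, with slide as a block and median-centred signals. With 1 array left out, sign changes occurred for EPCAM with HIPP (−0.026 to 0.13) and for CLDN3 (−0.056 to 0.017), CLDN7 (−0.10 to 0.11) and KRT8 (−0.069 to 0.22) with P4, and for KRT18 with HIPP (−0.17 to 0.077), which was untested. The brightest probe, replicate block, KRT18 probe and left-out arrays for differences were chosen after the data were seen. Signals near background limit the second CLDN1 probe and CDH1.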
